A study of Mus musculus with 27 samples.

Results

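Transcripts of complement components and regulators were measured in libraries of sorted hepatic stellate cells (HSCs) through acute and chronic liver injury. The members were a fixed list of 9 genes, C1ra, C2, C4b, Masp1, C3, Cfb, C7, Serping1 and Cd55, taken by symbol out of the 53379 genes counted. All 9 were present and passed the filter on low counts, which left 18758 genes tested. HSCs are mesenchymal cells of the liver that store retinoid. They were sorted by the ultraviolet fluorescence of that store, taken for RNA without culture, and sequenced in bulk.

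All animals were male Balb/c mice. Injury was induced with carbon tetrachloride (CCl4), which is toxic to hepatocytes, injected into the abdomen in mineral oil at 0.5 µL per g. There were 27 libraries in 7 groups. Healthy libraries (n = 4) came from untreated mice of 10 to 12 weeks, for which no injection of oil is described. Acute libraries came from mice of the same age after 1 injection, collected at 24 h (n = 3), 72 h (n = 4) or 7 d (n = 4). Chronic libraries came from mice that were 8 to 10 weeks old for a course of 8 injections over 4 weeks, collected 24 h, 72 h or 14 d after it (n = 4 each). No untreated mice matched in age to the end of the chronic course were described, so the course and age cannot be told apart. The sort keeps cells with retinoid fluorescence, which limits what it says of HSCs that have lost their store. Totals per library lay between 6.31 M and 13.1 M counts, and 8 libraries (chronic 24 h replicates 1 and 2, chronic 72 h replicates 1 and 2, and all of chronic 14 d) lay below 9 M. All 10 stellate cell markers were detected in every group, with a summed level of 14070 to 33920 CPM (counts per 1000000 counts). The summed level of 10 hepatocyte markers ran from 59.3 to 8376 CPM and that of 7 macrophage markers from 57.4 to 10460 CPM, so markers of both cell types were detected in the sorted libraries.

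Complement is a chain of blood proteins that tags surfaces for uptake and can pierce membranes. The classical and lectin routes cut C4 and C2 to form an enzyme that splits C3, the alternative route amplifies C3 splitting through factor B, and the terminal components then assemble a pore, while regulators on cells and in plasma stop each step. Hepatocytes are the main source of the plasma components, macrophages make others such as C1q, and stellate cells are known to express several.

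C4b and C3 changed most among the members. C4b was high in every chronic group and intermediate at acute 7 d, whereas C3 was about 10-fold lower than healthy at acute 24 h and 3.84- to 4.64-fold higher at acute 7 d and in the chronic groups. The size of these C3 changes depended on healthy replicate 4, while each call held without it. Masp1, the lectin route protease, fell in 5 of the 6 injured groups. Cd55, a membrane regulator, fell at acute 24 h and 72 h and was above healthy at acute 7 d and chronic 14 d. C1ra and C2 each passed the test in 1 group only, and Cfb, C7 and Serping1 passed it in none against healthy. A call required more than a 2-fold change and an adjusted p (Benjamini-Hochberg over all genes tested) under 0.05 in the edgeR quasi-likelihood fit of all libraries. Fold changes are given on the log2 scale with their SE. Groups whose libraries did not overlap were common among all genes tested. Against healthy the share was 39.8%, 23.6% and 24.6% at acute 24 h, 72 h and 7 d. In the chronic groups it was 26.4%, 21.1% and 13.3% at 24 h, 72 h and 14 d. Between chronic 14 d and 24 h it was 24.6%, and between chronic 72 h and acute 7 d 7.15%.

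**Figure D1:**
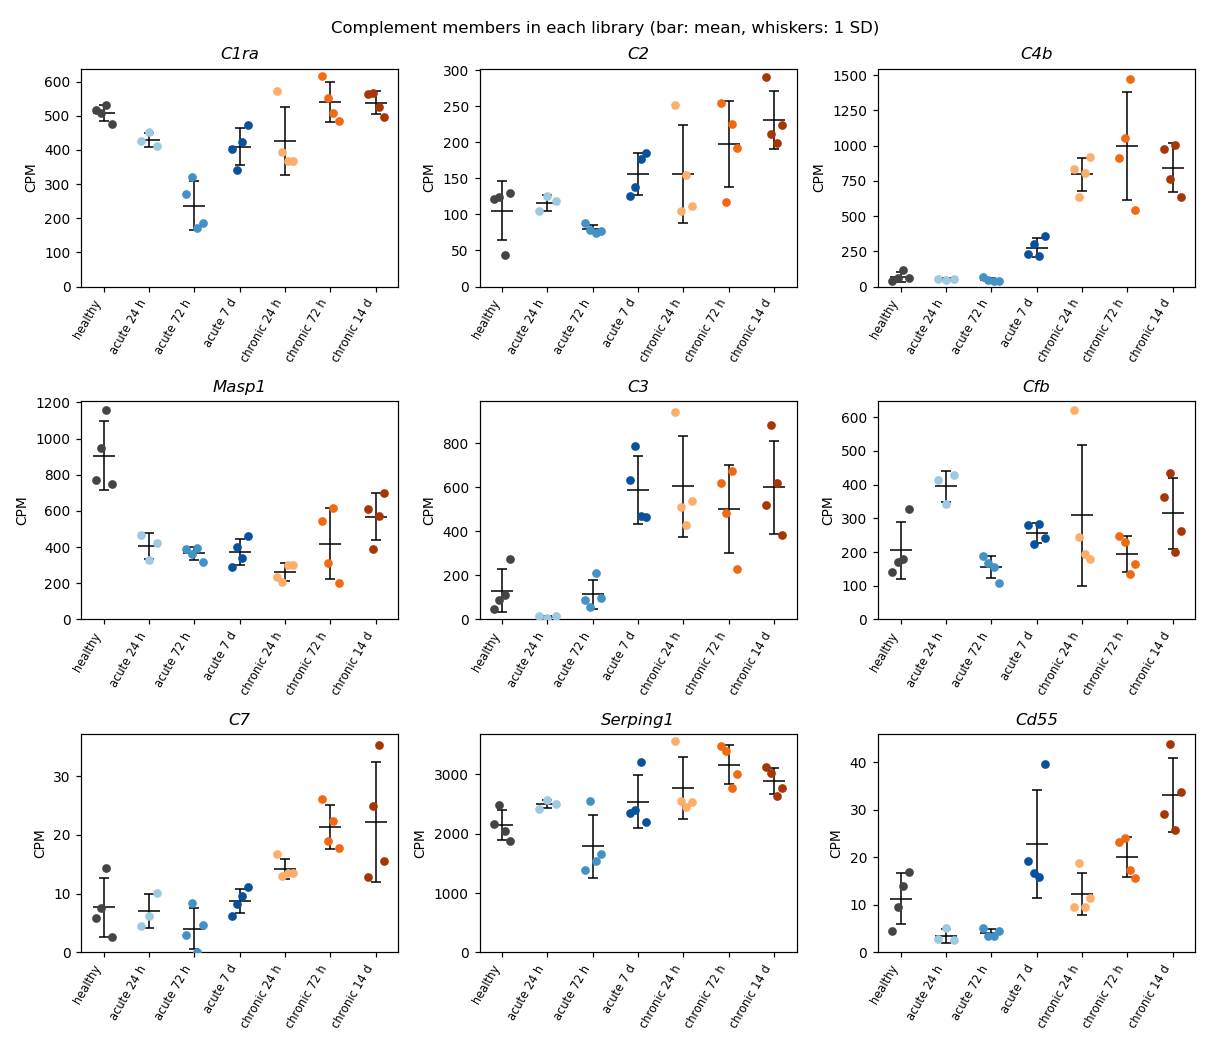
Level of each of the 9 genes in every library, in CPM (vertical axis, linear), by group (horizontal axis), with dots for libraries in replicate order, bars for group means and whiskers for 1 SD. C4b lies between 545 and 1474 CPM in the 12 chronic libraries and at 118 CPM or less in healthy ones, and C3 lies at 16.6 CPM or less in the 3 acute 24 h libraries.

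Per length, the members differed widely in healthy HSCs. Serping1 had the highest level at 921 ± 109 CPM per kb of exon (SD, n = 4), followed by C1ra at 170 ± 7.91. Masp1 at 92.1 ± 19.2 and Cfb at 72.5 ± 29.6 CPM per kb came next and overlapped within 1 SD. C2 (27.1 ± 10.6), C3 (25.4 ± 19.2) and C4b (12.2 ± 6.04 CPM per kb) formed a lower tier with overlapping SDs, and C7 (2.86 ± 1.85) and Cd55 (2.33 ± 1.12) were lowest. At chronic 72 h the level of C4b reached 175 CPM per kb, beside 181 CPM per kb for C1ra. In bulk RNA, fewer cells of a type and less RNA per cell cannot be told apart.

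C4b encodes the complement component C4, which is cut by the classical and lectin proteases and binds covalently to surfaces. It lies at chr17:34728380-34743882 on the minus strand (GRCm38, GENCODE M21), in the same region of chromosome 17 as C2 and Cfb. The healthy libraries held 37.6, 61.0, 118.5 and 61.3 CPM of C4b, the 3 acute 24 h libraries 56.2, 46.4 and 56.6, and the acute 72 h libraries 67.1, 46.5, 40.4 and 37.2. These 3 groups overlapped. The acute 7 d libraries held 228, 303, 214 and 360 CPM, all above the healthy ones. The chronic 24 h libraries held 833, 636, 804 and 916 CPM, the chronic 72 h libraries 912, 1051, 1474 and 545, and the chronic 14 d libraries 975, 763, 1003 and 634. Every chronic library lay above every acute 7 d library, and the chronic groups overlapped each other.

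Against healthy, the log2 level of C4b rose by 3.52 ± 0.32 (SE) at chronic 24 h (edgeR adjusted p = 2.9e-08), 3.84 ± 0.33 at chronic 72 h (adjusted p = 3.4e-08) and 3.60 ± 0.32 at chronic 14 d (adjusted p = 4.17e-07). It rose by 1.99 ± 0.30 at acute 7 d (adjusted p = 4.69e-05). The differences at acute 24 h (-0.39 ± 0.32, adjusted p = 0.377) and acute 72 h (-0.54 ± 0.30, adjusted p = 0.201) did not pass. The chronic 24 h and acute 24 h groups differed by 3.91 ± 0.37 (adjusted p = 1.68e-07). Between chronic 14 d and chronic 24 h the difference was 0.08 ± 0.29 (adjusted p = 0.883), so no fall in C4b was detected 14 d after the course. The chronic 72 h level exceeded that of acute 7 d by 1.85 ± 0.30 (adjusted p = 0.00707). In that comparison C4b was the only member called higher (0.165% of all genes tested were), and 0 were lower (0.267%). In the libraries above 9 M counts the log2 fold change was 1.87 with an adjusted p of 0.0575.

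C4b has a close relative, C4a, and counting can divide reads between them. The coding sequences were 96.14% identical over 5367 aligned bases, and 22.67% of the distinct 75-base words of C4b, the length of a read, also occur in C4a. One stretch of 60 coding bases is shown, bases 2761 to 2820 of the C4b coding sequence counted from its first base. It was picked as the stretch of that length with the most differences from C4a, 13 (in capitals), and is not typical. Reads that cover a difference, here or elsewhere, can be told apart.
C4b: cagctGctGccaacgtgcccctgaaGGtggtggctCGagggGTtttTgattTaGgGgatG
C4a: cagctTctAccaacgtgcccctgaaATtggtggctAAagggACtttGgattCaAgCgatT
C4a was counted at 2.90 to 33.5 CPM in healthy and 14.7 to 150 CPM in chronic 24 h and 72 h libraries, and it rose at chronic 24 h (log2 fold change 2.64 ± 0.91, adjusted p = 0.0295) and chronic 72 h (3.27 ± 0.93, adjusted p = 0.0148). C4b made up 64.6% to 99.3% of the counts of the pair over all libraries. With the counts of the pair summed, C4b kept its call in every comparison in which it was called.

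**Figure D2:**
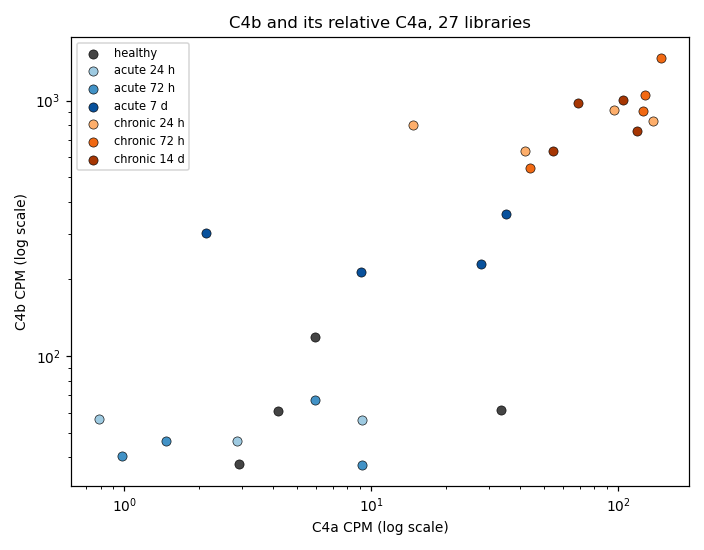
C4b against C4a in each of the 27 libraries, both in CPM on log axes, coloured by group. C4b exceeds C4a in every library, and both reach their highest values in chronic libraries.

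C3 encodes the component on which all routes converge. It lies at chr17:57203970-57228136 on the minus strand. C3 stood at 47.7, 89.2, 112 and 273 CPM in healthy libraries. The 3 acute 24 h libraries held 14.3, 7.64 and 16.6 CPM, all below healthy, and the acute 72 h libraries held 89.5, 58.6, 212 and 96.1, inside the healthy range. The acute 7 d libraries held 636, 787, 468 and 467 CPM. All of these lay above the healthy libraries. The chronic 24 h libraries held 943, 512, 429 and 537 CPM, the chronic 72 h libraries 620, 482, 674 and 230, and the chronic 14 d libraries 518, 882, 618 and 382. All chronic libraries but chronic 72 h replicate 4 exceeded the highest healthy one.

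C3 fell by 3.34 on the log2 scale at acute 24 h (SE 0.56, edgeR adjusted p = 6.99e-05). It rose by 2.17 ± 0.47 at acute 7 d (adjusted p = 0.00163), 2.21 ± 0.47 at chronic 24 h (adjusted p = 9.08e-04), 1.94 ± 0.47 at chronic 72 h (adjusted p = 0.00446) and 2.20 ± 0.47 at chronic 14 d (adjusted p = 0.00433). The difference at acute 72 h was -0.19 ± 0.45 (adjusted p = 0.81). Without healthy replicate 4 the log2 fold change of C3 was -2.69 at acute 24 h, 2.83 at acute 7 d, 2.87 at chronic 24 h, 2.596 at chronic 72 h and 2.85 at chronic 14 d, each a shift of over 1.5 times in the ratio, and each was called. With depth class (below or above 9 M counts) as a term, the chronic 14 d value was 1.76 (adjusted p = 0.119) and was not called. The largest difference of any member was that of C3 between chronic and acute 24 h, 5.56 ± 0.63 (adjusted p = 1.33e-06), beside 5.52 ± 0.62 between acute 7 d and acute 24 h (adjusted p = 5.15e-07).

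Hepatocyte markers were lower together with C3 at acute 24 h, and few of them passed the test where C3 rose. At acute 24 h all 10 of 10 hepatocyte markers were lower than in healthy libraries, with sums of 59.3 to 266 CPM against 588 to 4187, and no marker was at 0 in all libraries of a group. At acute 7 d, chronic 72 h and chronic 14 d 1 of 10 was higher, at chronic 24 h 1 of 10 was lower, and at acute 72 h 0 passed in either direction. The highest healthy level of C3, in replicate 4, came with the highest healthy hepatocyte sum. Per 1000 CPM of hepatocyte markers, C3 stood at 65.3 to 110 CPM in healthy, 60.4 to 242 in acute 24 h and 55.2 to 69.7 in acute 72 h libraries, so that the acute 24 h and healthy ranges overlapped on that scale. On the same scale it stood at 174 to 293 CPM in acute 7 d and 239 to 604 CPM in chronic 24 h libraries, above all healthy ones, and at 50.8 to 234 and 105 to 274 CPM in chronic 72 h and 14 d libraries, which overlapped healthy. The 4 chronic 24 h libraries had hepatocyte sums of 710 to 2970 CPM, inside the healthy range. Their C3 levels were 429 to 943 CPM, above every healthy library. C4b stood at 636 to 916 CPM in these libraries. In acute 24 h libraries it stood at 46.4 to 56.6 CPM, inside the healthy range. The part of hepatocyte RNA in the values of C3 and C4b was not tested in any group.

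Markers of several other cell types, though not of all, were higher in the groups in which C3 rose. Of 7 macrophage markers, 7 were higher than healthy at acute 7 d, chronic 24 h and chronic 72 h and 5 at chronic 14 d, and the sums were 63.1 to 241 CPM in healthy, 4182 to 10460 in acute 7 d and 761 to 1320 in chronic 14 d libraries. All 4 neutrophil markers were higher in each of these 4 groups, with sums of 0 to 1.90 CPM in healthy (S100a8 and Retnlg at 0 throughout), 26.98 to 43.7 at acute 7 d, 11.7 to 41.9 at chronic 24 h, 11.1 to 26.7 at chronic 72 h and 37.6 to 47.7 at chronic 14 d. Of 6 mesothelial cell and portal fibroblast markers tested (of 7 listed), 3 were higher at acute 7 d and chronic 72 h and 2 at chronic 24 h and 14 d. Their sums were 96.4 to 157 CPM in healthy, 358 to 488 at acute 7 d, 279 to 311 at chronic 24 h, 290 to 523 at chronic 72 h and 140 to 217 at chronic 14 d. Of 4 B cell markers, 4 were higher at acute 7 d and chronic 14 d. At chronic 72 h 3 were higher and at chronic 24 h 2. Of 5 Kupffer cell markers, 3 were higher at acute 7 d and 1 in each chronic group. Among 4 T and NK cell markers, 2 were higher at acute 7 d and chronic 14 d, and 1 at chronic 24 h and 72 h. Sinusoidal endothelial markers (6 listed) went otherwise, with 4 lower and 0 higher at chronic 24 h. Just 1 of them was higher at acute 7 d, and 0 passed at chronic 72 h or 14 d. Of 4 cholangiocyte markers, 1 was higher in each of these 4 groups. Cholangiocyte sums were 51.8 to 91.4 CPM in healthy and 730 to 4779 CPM in acute 7 d libraries. The 4 markers were Krt19, Krt7, Epcam and Spp1. In healthy replicate 1 the sum was 51.8 CPM with 3 of the 4 at 0, so these sums can rest on few markers. The genes most like C3 over 27 libraries were Tbc1d4 (r = 0.95), Ighm (r = 0.93) and Col18a1 (r = 0.92). The part of these cells in the values of C3 and C4b was not tested.

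**Figure D3:**
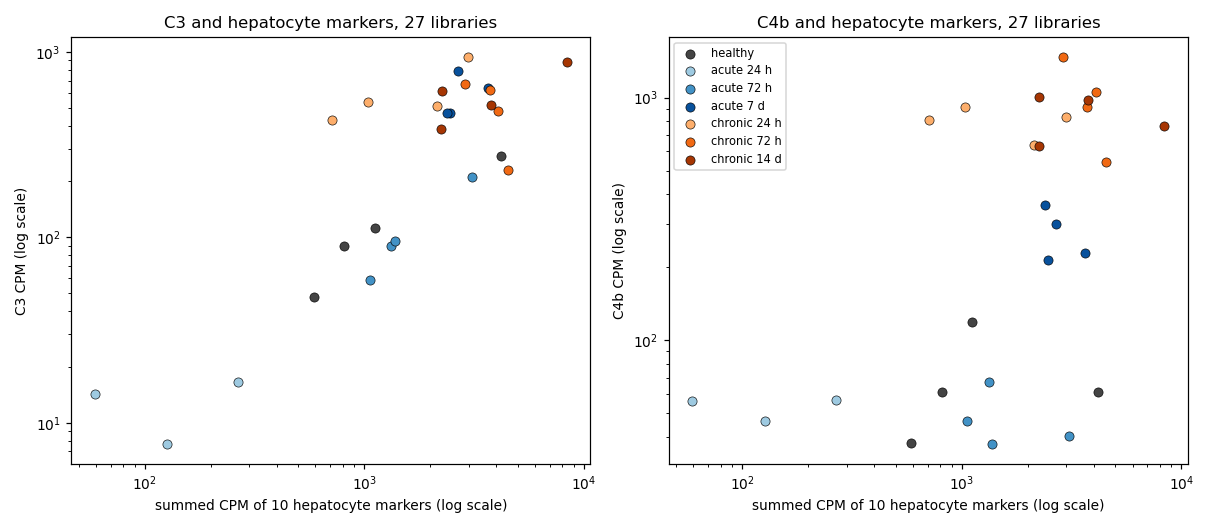
C3 (left) and C4b (right) in CPM against the summed CPM of 10 hepatocyte markers, log axes, 1 dot per library coloured by group. The acute 24 h libraries are low on both axes for C3, while for C4b the 12 chronic libraries lie above all healthy ones at hepatocyte sums from 710 to 8376 CPM.

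Upstream sequence of C3 and Cd55 is shown because these genes and C4b had the highest correlations among the members (Pearson r of log2 CPM over 27 libraries 0.79 for C3 and C4b, 0.79 for C3 and Cd55, and 0.77 for C4b and Cd55, a description of libraries that share groups). RefSeq promoters on GRCm38.p6 matched 4 of the 9 members, C3, C7, C1ra and Cd55. The 250 bases before the start, 5′ to 3′ on the gene's strand, are chr17:57228137-57228386 for C3 and chr1:130462745-130462994 for Cd55, with a motif match in capitals.
C3: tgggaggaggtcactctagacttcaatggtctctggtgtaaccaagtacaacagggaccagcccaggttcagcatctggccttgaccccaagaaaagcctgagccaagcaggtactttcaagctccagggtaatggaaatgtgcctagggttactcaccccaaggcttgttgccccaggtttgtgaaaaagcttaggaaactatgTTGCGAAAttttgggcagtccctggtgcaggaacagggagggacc
Cd55: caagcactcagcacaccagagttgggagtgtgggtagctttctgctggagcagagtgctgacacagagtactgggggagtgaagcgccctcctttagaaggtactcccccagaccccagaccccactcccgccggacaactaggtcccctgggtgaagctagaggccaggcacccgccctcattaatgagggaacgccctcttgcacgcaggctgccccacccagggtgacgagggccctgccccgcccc
The 5 motifs were searched on both strands in all 32851 RefSeq promoters, with overlap between motifs allowed. C3 held 1 match to the C/EBP pattern TTGCNNAA, 45 to 38 bases before the start, a pattern found in 9.56% of promoters. C7 held 1 match to the GAS pattern TTCNNNGAA (7.02% of promoters), 164 to 156 bases before the start. Cd55 and C1ra held no match to these, to AP-1 (TGANTCA, 6.75%), or to ISRE (2.98%) or NF-kB (7.25%), which are given by name alone. The stretch searched for C1ra, chr6:124512371-124512620, precedes its RefSeq start. Most of it lies inside the gene as placed by GENCODE, which starts at 124512405, so the bases before that start were mostly not searched. A match is a description of letters and not a bound site.

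Masp1 encodes a serine protease that travels with the lectins of the lectin route. It lies at chr16:23449417-23520815 on the minus strand. Masp1 stood at 769, 947, 1157 and 751 CPM in healthy libraries. The acute 24 h libraries held 467, 329 and 423 CPM, the acute 72 h libraries 390, 363, 394 and 317, and the acute 7 d libraries 290, 399, 342 and 461. The chronic 24 h libraries were lowest at 234, 209, 303 and 302 CPM, followed by 544, 313, 619 and 200 at chronic 72 h and 610, 391, 570 and 700 at chronic 14 d. Every injured library lay below every healthy one.

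Masp1 fell by 1.16 on the log2 scale at acute 24 h (SE 0.29, edgeR adjusted p = 0.00313), by 1.31 at acute 72 h (SE 0.26, adjusted p = 8.9e-04) and by 1.28 at acute 7 d (SE 0.26, adjusted p = 0.00102). It fell by 1.79 at chronic 24 h (SE 0.27, adjusted p = 1.71e-05) and by 1.11 at chronic 72 h (SE 0.26, adjusted p = 0.00381). The last of these calls was lost without healthy replicate 3 (-0.97), chronic 72 h replicate 2 (-0.97) or replicate 4 (-0.88). That call was also lost with library size alone (-0.98) and with only the 2 groups compared (edgeR adjusted p = 0.0627). At chronic 14 d the difference from healthy was -0.67 ± 0.26 (adjusted p = 0.112), and the level was above that of chronic 24 h by 1.12 ± 0.26 (adjusted p = 0.00334), with no overlap. The genes most like Masp1 over 27 libraries, among 10292 compared, were Ntn1 (r = 0.93), Reln (r = 0.91), which is itself on the stellate cell marker list, and Ank3 (r = 0.90). The summed level of the 10 stellate cell markers was 20450 to 33920 CPM in healthy, 18750 to 28110 in acute 24 h, 14070 to 17940 in acute 72 h, 16800 to 19580 in acute 7 d, 14300 to 16470 in chronic 24 h, 19680 to 21520 in chronic 72 h and 19220 to 24250 in chronic 14 d libraries. Against healthy, 2, 3 and 3 of the 10 were lower at acute 24 h, 72 h and 7 d, and 5, 4 and 1 at chronic 24 h, 72 h and 14 d, where 1 was higher at chronic 24 h. Their part in Masp1 was not tested.

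Cd55 encodes decay-accelerating factor, a membrane protein that takes apart the enzymes that split C3. It lies at chr1:130439027-130462744 on the minus strand, and its counts were low, between 29 and 519 per library. The healthy libraries held 4.53, 9.65, 14.1 and 17.0 CPM. The acute 24 h libraries held 2.76, 5.04 and 2.55 CPM and the acute 72 h libraries 5.14, 3.55, 3.50 and 4.49, which overlapped healthy only through healthy replicate 1. The acute 7 d libraries held 19.2, 16.6, 15.8 and 39.8 CPM. The chronic libraries held 9.59, 18.8, 9.65 and 11.4 CPM at 24 h, 23.3, 24.1, 17.4 and 15.6 at 72 h, and 29.2, 43.8, 25.9 and 33.8 at 14 d, where all 4 exceeded healthy.

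Cd55 fell by 1.71 on the log2 scale at acute 24 h (SE 0.40, edgeR adjusted p = 0.00186) and by 1.44 at acute 72 h (SE 0.36, adjusted p = 0.00514). It rose by 1.55 ± 0.35 at chronic 14 d (adjusted p = 0.00635) and by 1.01 ± 0.34 at acute 7 d (adjusted p = 0.0353). All chronic 14 d libraries lie in the lower depth class, and with depth class as a term the value there was 1.07 (adjusted p = 0.207), which was not called. The acute 7 d call rested on replicate 4, without which the value was 0.61 (adjusted p = 0.205), and it was also lost without healthy replicate 1 (0.75) or 2 (0.94). Cd55 was higher at chronic 14 d than chronic 24 h by 1.43 ± 0.35 (adjusted p = 0.00464), at acute 7 d than acute 24 h by 2.73 ± 0.41 (adjusted p = 1.84e-05), and at chronic than acute 24 h by 1.83 ± 0.40 (adjusted p = 0.00205). The gene most like Cd55 was Gimap4 (r = 0.95), followed by Pitpnc1 (r = 0.92) and Slc39a8 (r = 0.91). Of 4 B cell markers, 4 were higher than healthy at acute 7 d and chronic 14 d, where Cd55 rose. At acute 24 h and 72 h, where Cd55 fell, 1 and 0 were lower. At chronic 24 h and 72 h, where Cd55 was not called, 2 and 3 were higher. Against acute 24 h, 4 were higher at acute 7 d and chronic 24 h, and 2 at chronic 14 d than chronic 24 h. Mean sums were 0.821 CPM in acute 24 h, 2.93 in healthy, 4.43 in acute 72 h and 31.13 in chronic 14 d libraries. Their part in Cd55 was not tested. Of 6 sinusoidal endothelial markers, 4 were lower and 1 higher than healthy at acute 24 h and 5 were lower at acute 72 h, where Cd55 fell. Against healthy, 4 were also lower at chronic 24 h, where Cd55 was not called, while 1 was higher at acute 7 d and 0 passed at chronic 14 d, where Cd55 rose. Between injured groups, 5 were higher at chronic 14 d than chronic 24 h, 4 at acute 7 d than acute 24 h and 1 at chronic than acute 24 h. Their sums were 92.8 to 297 CPM in healthy, 45.4 to 62.1 in acute 24 h, 24.6 to 85.8 in acute 72 h, 120.5 to 398 in acute 7 d, 37.6 to 119 in chronic 24 h, 117 to 174 in chronic 72 h and 264 to 437 in chronic 14 d libraries, with no marker at 0 throughout a group, and their part in Cd55 was not tested.

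C1ra encodes the C1r protease that starts the classical route inside the C1 complex. It lies at chr6:124512405-124523443 on the plus strand. Its levels were 516, 508, 532 and 476 CPM in healthy and 270, 320, 172 and 186 CPM in acute 72 h libraries, the lowest group, with no overlap. C1ra fell by 1.10 on the log2 scale there (SE 0.17, edgeR adjusted p = 6.95e-05). That change was close to the 2-fold minimum and lost its call without acute 72 h replicate 3 (-0.98) or 4. With library size alone (-0.99) the call was also lost. In the other injured groups the group means lay between 410 and 539 CPM and no comparison passed. C1rb, a relative that shares 40.11% of the 75-base words of C1ra, was the gene most like it (r = 0.99) and also fell at acute 72 h (-1.15 ± 0.18, adjusted p = 6.08e-05), so the counts of the pair may divide shared reads.

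C2 encodes the second chain of the enzyme that splits C3 in the classical and lectin routes. It lies at chr17:34862604-34898265 on the minus strand. The healthy libraries held 122, 125, 43.6 and 129 CPM of C2, with replicate 3 far below the others. The chronic 14 d libraries held 290, 212, 199 and 224 CPM, all above healthy, and C2 rose there by 1.14 ± 0.29 (edgeR adjusted p = 0.0149). With depth class as a term the value was 1.02 (adjusted p = 0.167) and was not called. At chronic 72 h the libraries held 255, 117, 225 and 193 CPM, and the difference of 0.91 ± 0.29 (adjusted p = 0.0281) did not reach 2-fold.

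The low C2 library was matched by an overlapping gene. Gm20547, on the same strand, spans both C2 and Cfb and covers 42.77% of the exonic bases of C2 and 79.5% of those of Cfb. It was counted at 83.9 CPM in healthy replicate 3 and at 0 to 34.5 CPM in all other libraries, including 0 in all acute 72 h libraries. The sum of C2 and Gm20547 was 130, 125, 128 and 129 CPM in the healthy libraries, a span within which replicate 3 no longer stood apart. With Gm20547 counts added to C2, an alternative chosen after the data had been seen, the chronic 14 d difference was 0.92 (adjusted p = 0.0145), and without healthy replicate 3 it was 0.88 (adjusted p = 0.0416). Both are under the 2-fold minimum. How the counting divided reads between these genes is not given in the sources used here.

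Cfb encodes factor B, the protease of the alternative route. It lies at chr17:34856374-34862518 on the minus strand. The healthy libraries held 141, 170, 180 and 328 CPM of Cfb, and the acute 24 h libraries 415, 343 and 428, all above healthy. Between these groups 39.8% of all genes tested did not overlap. The difference of Cfb, 0.95 ± 0.36 (edgeR adjusted p = 0.0428), fell short of 2-fold and was 1.27 (adjusted p = 0.00993) without healthy replicate 4, the library richest in hepatocyte markers among the healthy ones. Leaving out each library in turn gave 0.81 to 1.27. Of the distinct 75-base words of Cfb, 69.86% also occur in Gm20547, so counting may divide reads between these genes too. At acute 24 h Cfb and C3 stood on opposite sides of healthy. The other groups overlapped healthy, with means from 155 CPM at acute 72 h to 315 CPM at chronic 14 d. At chronic 24 h, 1 library (replicate 1) held 621 CPM and the others 179 to 245. In the libraries above 9 M counts, which leave out that library and replicate 2, Cfb was lower at chronic than at acute 24 h by a log2 fold change of -1.12 (adjusted p = 0.0213), against -0.35 ± 0.36 over all libraries.

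Serping1 encodes C1 inhibitor, the plasma serpin that blocks C1r, C1s and the lectin proteases. It lies at chr2:84765387-84775444 on the minus strand. Its group means ran from 1785 CPM at acute 72 h to 3159 CPM at chronic 72 h, a ratio of 1.77, the narrowest of the 9 members. All 4 chronic 72 h libraries (3469, 3393, 2765 and 3009 CPM) exceeded the healthy ones (2154, 2484, 2049 and 1881 CPM), with a difference of 0.56 ± 0.17 (edgeR adjusted p = 0.0237) that did not reach 2-fold.

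C7 encodes a terminal component that anchors the forming pore in the membrane. It lies at chr15:4988762-5063740 on the minus strand and was counted at 0 to 294 per library. The healthy libraries held 5.89, 7.61, 14.4 and 2.69 CPM, the chronic 72 h libraries 26.1, 19.0, 22.4 and 17.9, and the chronic 14 d libraries 12.8, 24.9, 35.4 and 15.6. All chronic 72 h libraries were above healthy, but the difference of 1.48 ± 0.61 (edgeR adjusted p = 0.0915) did not pass. At chronic 14 d the difference of 1.53 ± 0.61 (adjusted p = 0.125) did not pass either. The chronic 72 h value was called with the test of DESeq2 (1.48, adjusted p = 0.0489). Without healthy replicate 3 it was also called (1.98, edgeR adjusted p = 0.047). Acute 72 h replicate 3 was listed at 0 counts beside 34 to 97 in the other 3 libraries of its group.

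At chronic 24 h, 2 of the 9 members were called higher than healthy (11.2% of all genes tested were) and 1 lower (8.11%). At chronic 72 h 2 were higher (7.88% of all genes) and 1 lower (4.2%), and at chronic 14 d 4 were higher (4.55%) and 0 lower (1.17%). After 1 injection 0 members were higher (9.41% of all genes) and 3 lower (12.5%) at 24 h. At 72 h 0 were higher (8.23%) and 3 lower (4.33%), and at 7 d 3 were higher (9.23%) and 1 lower (5.64%). The median log2 fold change of the members was 0.57, 0.83 and 1.14 in the chronic groups, beside -0.03, 0.00 and -0.03 over all genes, and -0.24, -0.54 and 0.32 in the acute groups, beside -0.12, 0.00 and 0.01. These comparisons share the 4 healthy libraries. At acute 72 h all 9 values were below 0. Compared with chronic 24 h, 2 members were higher at chronic 14 d (6.65% of all genes) and 0 lower (6.11%). Compared with acute 24 h, 3 were higher at acute 7 d (17.8%) and 0 lower (9.24%), and 3 were higher at chronic 24 h (10.9%) and 0 lower (3.05%).

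**Figure D4:**
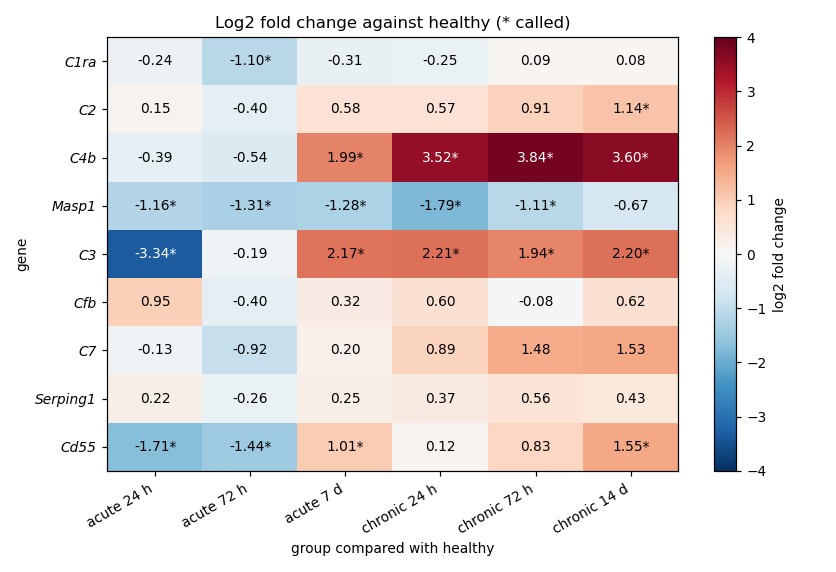
Log2 fold change against healthy of the 9 genes (rows) in the 6 injured groups (columns), coloured from blue (lower) to red (higher), with the value printed and an asterisk where the gene was called. C4b reaches 3.84 at chronic 72 h, C3 falls to -3.34 at acute 24 h, and Masp1 is below 0 in all 6 columns.

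Of the 45 other complement genes listed by role, 41 could be tested (Fcnb, Cfd, Cd55b and Csmd1 were too low). In the lectin route, of 6 genes tested, 4 were lower than healthy at acute 24 h (12.5% of all genes tested were), 3 at acute 72 h (4.33%), 2 at acute 7 d (5.64%), 3 at chronic 24 h (8.11%), 3 at chronic 72 h (4.2%) and 2 at chronic 14 d (1.17%). One was higher at each of chronic 72 h (Mbl2, 7.88% of all genes) and 14 d (Mbl1, 4.55%). Fcna, which encodes a ficolin, averaged 2041 CPM in healthy and 130 CPM in chronic 24 h libraries and fell by 3.98 on the log2 scale (SE 0.37, edgeR adjusted p = 3.61e-08). It also fell by 2.76 at acute 72 h, 3.30 at acute 7 d, 3.15 at chronic 72 h and 1.32 at chronic 14 d. Colec11, which encodes a collectin, averaged 3290 CPM in healthy and 430 CPM in chronic 24 h libraries and was lower in all 6 injured groups, by 2.94 on the log2 scale at chronic 24 h (SE 0.25, adjusted p = 7.2e-09) and by 1.08 at chronic 14 d. Colec10, its partner, was lower at acute 24 h and 72 h and chronic 24 h and 72 h. Mbl1 and Mbl2, the mannose-binding lectins, were lower at acute 24 h. The part of the lower stellate cell marker sums in Fcna and Colec11 was not tested.

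In the classical route, the C1q chains C1qa, C1qb and C1qc rose at acute 7 d (log2 fold changes of 2.15, 2.43 and 2.25), chronic 24 h (1.75, 1.98 and 1.78) and chronic 72 h (1.94, 2.09 and 1.98). Macrophage markers rose in these same groups, 7 of 7 in each against healthy, with sums of 4182 to 10460 CPM at acute 7 d, 482 to 3241 at chronic 24 h and 773 to 1923 at chronic 72 h, beside 63.1 to 241 CPM in healthy libraries and no marker at 0. Complement receptors of myeloid cells rose there too, with C3ar1, the receptor of a C3 fragment, at 113 CPM at acute 7 d against 5.76 CPM in healthy (4.28 ± 0.49, edgeR adjusted p = 1.76e-06), Itgb2 at 4.49 and Itgam at 5.74. Itgam averaged 0.329 CPM in healthy libraries, near the floor, and 18.4 CPM at acute 7 d, so the size of its rise is uncertain. Of 9 receptors tested, 6 were higher at acute 7 d (9.23% of all genes tested were) and 5 at each of chronic 24 h (11.2%) and 72 h (7.88%). The part of macrophage RNA in these values was not tested. C4b was called higher in these same groups and at chronic 14 d, where 5 of 7 macrophage markers were higher. At acute 72 h 3 of 7 were higher, and C4b was not called. The highest group mean of C4b was at chronic 72 h (995 CPM), and the highest macrophage sums were at acute 7 d. The part of macrophage RNA in C4b was not tested.

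At acute 24 h, 16 of the 41 were lower (12.5% of all genes tested were) and 2 higher (9.41%). C9, a pore subunit, fell there by 6.31 (SE 1.20, edgeR adjusted p = 3.01e-04). Its mean was 17.2 CPM in healthy and 0.205 CPM at acute 24 h, near the floor, so the size is uncertain. Hc, which encodes C5, was listed at 0 in all 3 acute 24 h libraries. In this group 5 of 6 terminal genes and 5 of 7 soluble regulators were lower, beside the same 12.5% of all genes and together with the 10 hepatocyte markers, whose part in these values was not tested. The soluble regulators passed no test in either direction at acute 7 d or in the chronic groups. Clu, a soluble regulator, fell at acute 72 h (-1.44 ± 0.27, adjusted p = 4.23e-04).

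**Figure D5:**
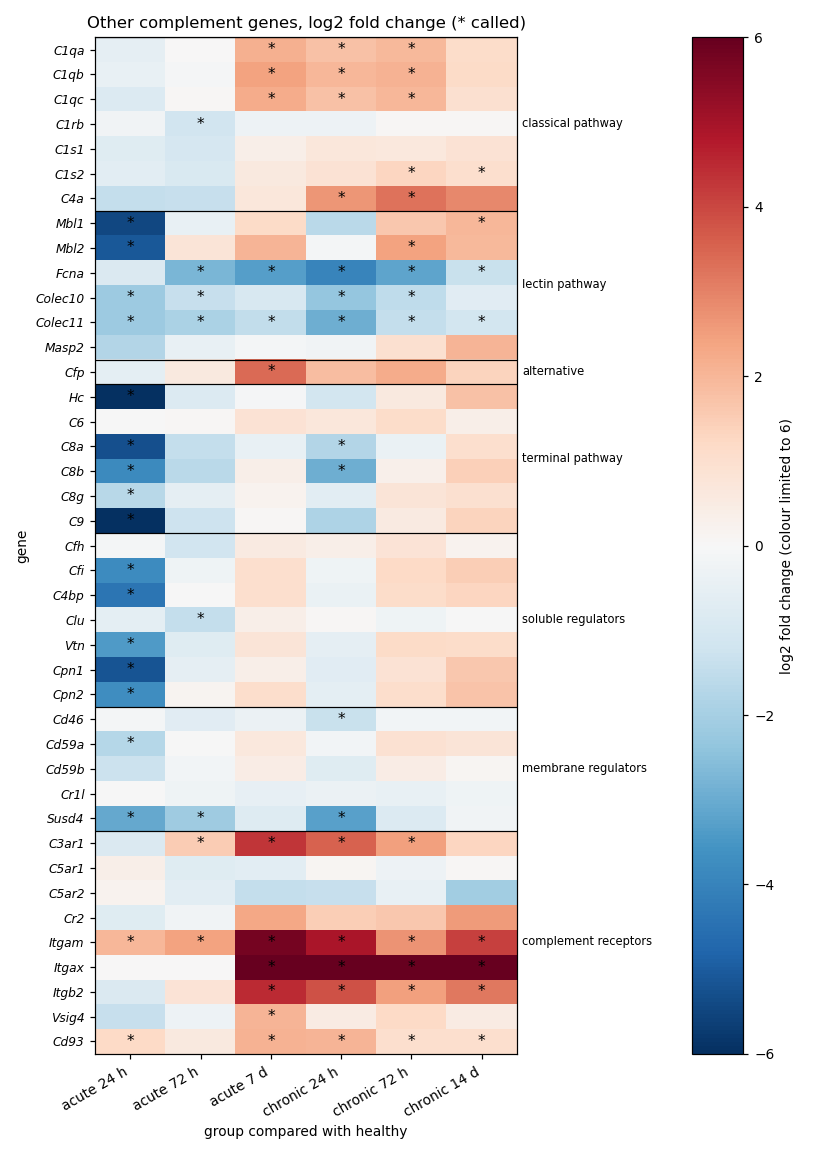
Log2 fold change against healthy of the 41 other complement genes tested (rows, grouped by role) in the 6 injured groups (columns), with an asterisk where called and colours limited to 6 either way. Fcna and Colec11 are lower in most columns, C1q chains and Itgam, Itgb2 and C3ar1 higher at acute 7 d and chronic 24 h, and the values of Hc at acute 24 h and of Itgax are fits against groups at 0 and give no size. Those of C9 at acute 24 h and of Itgam rest on groups near 0.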

How the data were processed

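RNA of HSCs was measured in 27 libraries, 1 sample per column. According to its methods section and the labels, single-end reads of 75 bases were trimmed after FastQC, mapped to GRCm38.p6 by STAR and assembled by StringTie. The authors deposited raw counts for each Ensembl gene, not normalized. How the assembly became counts, whether strand was used, the annotation release and the versions of these tools are not given in the sources used here. The study states that each repeat was a separate experiment. The number of mice behind each library is not given in the sources used here, so p-values measure the spread between libraries.

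Symbols, positions and exon lengths came from GENCODE M21. Counts were analysed with R 4.3.3 and edgeR 4.0.16. After filterByExpr by group and TMM scaling, a robust quasi-likelihood model with 1 mean for each group was fitted. CPM used the scaled library sizes, and log2 CPM a prior count of 2. Fold changes come from the model, and n is the number of libraries. The procedure was tested on simulated counts. The members, the gene lists and the 10 comparisons were chosen with earlier results of these data known. The text names all members and their relatives, but only some of the markers. Of the genes that overlap a member it names Gm20547 alone. Other complement genes were taken from the 3 highest and 3 lowest called in each comparison with mean log2 CPM of at least 1. Cd93 and C8b met that rule and are not described. Genes most correlated with a member are given for C3, Masp1, Cd55 and C1ra only. C1qa, C1qb, C1qc, Colec10 and Mbl2 at acute 24 h were named in addition, after their values were seen.

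The alternatives were DESeq2 size factors, library size alone, no filter, the test of DESeq2 1.42.0, an adjusted p of 0.1, no fold minimum, only the 2 groups compared, the replicate number as a block, depth class as a term, libraries above 9 M counts, relatives summed, and each library left out in turn. Adding Gm20547 to C2 or to Cfb was chosen after the data had been seen. Figures were drawn with matplotlib 3.10.9.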

Additional observations from a re-analysis of the deposited data

Results flagged for a closer look

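Of 72 groups of 4 libraries examined, 10 held 1 library set apart from the other 3, by the gap to its neighbour over the range of the group. The rule flags about 1 in 20 for independent, normally distributed values, which CPM of genes in shared libraries need not be. A small gap is also flagged where the other 3 lie close together, as for C7 below. C2 was at 43.6 CPM in healthy replicate 3, against 122 to 129 in the others. Chronic 24 h replicate 1 stood above the rest of its group for 4 members, with C7 at 16.8 CPM (others 13.0 to 13.5), C1ra at 573.5 CPM (others 368.5 to 393), Cfb at 621 CPM (others 179 to 245) and Serping1 at 3556 CPM (others 2442 to 2556). Cd55 was at 39.8 CPM in acute 7 d replicate 4, against 15.8 to 19.2. Among marker sums, the stellate cell sum was 20450 CPM in healthy replicate 3 (others 31850 to 33920), the hepatocyte sum 4187 CPM in healthy replicate 4 (others 588 to 1119) and 3084 CPM in acute 72 h replicate 3 (others 1062 to 1378), and the macrophage sum 1320 CPM in chronic 14 d replicate 2 (others 761 to 803).

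The change from healthy differed between the chronic and acute courses at 24 h for 3 members. The difference, tested directly in the edgeR fit, was a log2 value of 5.56 for C3, 3.91 for C4b and 1.83 for Cd55.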

How the results depend on the processing

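Of the 90 pairs of member and comparison, 29 were called, and 22 of these were called under every alternative run. Of 61 pairs not called, 7 were called under at least 1 alternative. With library size alone, Masp1 at chronic 72 h (-0.98) and C1ra at acute 72 h (-0.99) lost their calls. With only the 2 groups compared, Masp1 at chronic 72 h and C2 at chronic 14 d (edgeR adjusted p = 0.0708) lost theirs. Cd55 at acute 7 d lost its call there too (adjusted p = 0.14). In libraries above 9 M counts its adjusted p was 0.0526. In the chronic 72 h group, 5 members differed from healthy with no fold minimum. With depth class as a term, 1 member was called at chronic 14 d, C4b, while C3 (1.76, adjusted p = 0.119), C2 (1.02) and Cd55 (1.07) lost their calls. All chronic 14 d libraries are in the lower depth class. In libraries above 9 M counts, 0 members were called between chronic 72 h and acute 7 d (edgeR), with fewer libraries. Leaving out 1 library gave 3 to 3 members called at chronic 24 h, 2 to 5 at chronic 72 h (5 without healthy replicate 4), 3 to 4 at chronic 14 d, 3 to 4 at acute 24 h, 2 to 3 at acute 72 h and 3 to 4 at acute 7 d against healthy, 3 to 3 for acute 7 d and for chronic 24 h against acute 24 h, 1 to 1 for chronic 72 h against acute 7 d and 2 to 2 for chronic 14 d against chronic 24 h. Library size alone moved the share of all genes called that were higher at chronic 14 d from 79.6% to 91.2% against healthy and from 52.1% to 67.2% against chronic 24 h, and shifted the median of all genes to 0.15 and 0.18. Without healthy replicate 4 the changes of C3 against healthy shifted upwards by more than 1.5 times, with every call kept. The cause of these changes was not tested.

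Replicate numbers did not pair the libraries: same-numbered libraries had a median correlation of 0.03 in their deviations (-0.22 to 0.25). With the replicate block, 1 call was lost, that of Cd55 at acute 7 d (0.99), and 0 were gained.

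All values that changed sign were of members not called. For C3 between chronic 14 d and 24 h they were 0.0467 with DESeq2 size factors, 0.0453 with DESeq2, 0.15 with library size, 0.0185 without the filter and 0.0593 with only these groups. With library size alone, Cfb at chronic 72 h was 0.0599, C1ra between acute 7 d and 24 h 0.038 and between chronic and acute 24 h 0.0033, and with the block 0.0091. Serping1 between acute 7 d and 24 h was -0.0021 without the filter. With depth class as a term, Cd55 at chronic 24 h was -0.13, C1ra -0.0741 at chronic 72 h and -0.23 at 14 d, Cfb -0.33 at chronic 14 d against healthy and -0.33 against chronic 24 h, and Serping1 -0.0725 there. In libraries above 9 M counts, Cfb (-0.13) and Cd55 (-0.10) at chronic 24 h, C1ra (-0.0006) at chronic 72 h and Serping1 (-0.0339) between chronic and acute 24 h were below 0, as was C2 (-0.0498) at acute 24 h with Gm20547 added. Leaving out 1 library crossed 0 for 16 uncalled values, with ranges against healthy of -0.15 to 0.39 (Cd55, chronic 24 h), -0.22 to 0.24 (Cfb, chronic 72 h), -0.11 to 0.27 (C2, acute 24 h), -0.51 to 0.38 (C7, acute 24 h), -0.70 to 0.46 (C3, acute 72 h) and -0.0842 to 0.70 (C7, acute 7 d). Between acute 7 d and 24 h they were -0.14 to 0.01 (C1ra) and -0.10 to 0.0908 (Serping1), and between chronic and acute 24 h -0.19 to 0.0509 (C1ra). Between chronic 72 h and acute 7 d they were -0.38 to 0.0062 (C3), -0.0549 to 0.40 (Masp1) and -0.33 to 0.22 (Cd55), and between chronic 14 d and 24 h -0.22 to 0.28 (C3), -0.0133 to 0.25 (C4b), -0.15 to 0.61 (Cfb) and -0.0003 to 0.20 (Serping1).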
